A study of Mus musculus with 15 samples.

Results

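Macrophages of the dura mater, the outer membrane around the brain, were compared at postnatal day 3 (P3) with the embryonic age before it (E14.5, E for embryonic day) and the age after it, postnatal day 10 (P10). The members were the 9 of the 15 libraries of the series that belong to these ages, 3 per age. The rule that picks them uses the age labels and no measured value, and the question was which genes had P3 levels above both neighbouring ages or below both. All groups were Cx3cr1GFP/wt mice on the C57BL/6J background, so every library came from cells with 1 Cx3cr1 allele replaced by GFP, and no group was treated. The labels name the sorted cells CD206pos and the cell type dural macrophages, and CD206 is the mannose receptor encoded by Mrc1. The libraries of P21 and P56, postnatal days 21 and 56, entered the model for its estimate of spread and are given where they show what came later.

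Border macrophages of the meninges are seeded before birth and keep maturing after it. Between E14.5 and P10 a mouse passes through birth, air breathing, the start of suckling and first contact with microbes. Immediate early genes are transcribed within minutes of a stimulus, without new protein synthesis. They include the AP-1 and EGR transcription factors and the proteins that shut the same signals off. Interferon-stimulated genes encode antiviral proteins and their regulators, are switched on by the factors STAT and IRF, and many are also transcribed at a low basal level in tissue macrophages.

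The 9 libraries held 17550170 to 30614583 counts, and those of P3 held 30281520, 17550170 and 21404379. Mitochondrial genes took 0.502% to 1.14% of the counts. Mrc1 did not pass the test at P3 against its neighbours. It had 2306, 1842 and 2398 CPM at P3, 2427 to 2661 at E14.5 and 1640 to 2409 at P10. The sort marker was thus present at all 3 ages, and its P3 range overlapped P10 and lay just under E14.5. Cx3cr1, the altered locus, had 310 to 501 CPM at P3, 579 to 868 at E14.5 and 337 to 476 at P10. Ptprc had 153 to 167 CPM at P3, 192 to 212 at E14.5 and 135 to 205 at P10. The ranges of Csf1r and Adgre1 overlapped between all 3 ages. None of these genes passed. The 18 core macrophage genes summed to 30787 to 33413 CPM of the total count at P3. This lay above 23055 to 23874 at E14.5 and below 36213 to 43104 at P10. E14.5 replicates 1 and 2 carried 80.2 and 57.6 CPM of Xist, the RNA of the inactive X chromosome, with 1.31 and 3.77 CPM of Y-linked genes. All other libraries had at most 3.22 CPM of Xist and at least 131.9 CPM of Y-linked genes, so sex differed within E14.5 as well as between E14.5 and later ages. In bulk RNA, fewer cells of a type and less RNA per cell cannot be told apart.

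The test asked whether the mean log2 level at P3 departed from the midpoint of E14.5 and P10. It used edgeR's quasi-likelihood test with Benjamini-Hochberg adjustment over 14683 genes, and a gene was called at an adjusted p under 0.05. Levels are CPM, counts divided by the library total and scaled by TMM, and n = 3 libraries per age throughout. At this threshold 27 genes (0.184%) were called, 18 (0.123%) higher and 9 (0.0613%) lower, and 944 (6.43%) had an unadjusted p under 0.05. A departure from the midpoint does not by itself place P3 outside its neighbours. Of the called genes, 7 (0.0477% of the genes tested) had every P3 library above all 6 neighbouring libraries and 9 (0.0613%) had every P3 library below them. The other 11 had P3 between or overlapping its neighbours. The counts changed in fits that left out 1 library, with 17 genes called without P3 replicate 1 or without P10 replicate 2, and 14 without P3 replicate 2. Without P3 replicate 2, 3 of the 7 and 4 of the 9 kept their calls. Without the call, 219 genes (1.49%) had P3 libraries above all 6 and 241 (1.64%) had them below.

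**Figure D1:**
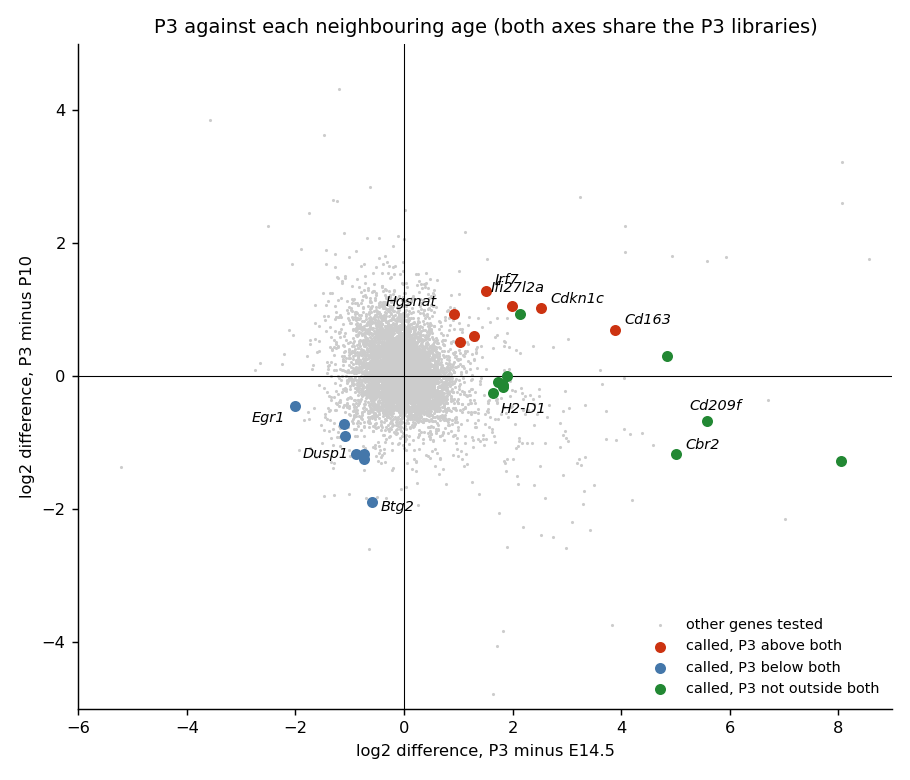
Each point is a gene with a mean of at least 20 CPM at E14.5, P3 or P10 (7195 genes, 2 of them outside the axes), placed by its log2 difference at P3 against E14.5 (horizontal) and against P10 (vertical); coloured points are the 24 of these genes called against the midpoint, and a position follows from both differences, which share the P3 libraries. Called genes below both ages (blue, such as Dusp1 at -0.74 and -1.17) sit at the lower left, those above both (red, such as Hgsnat at 0.93 and 0.94) at the upper right, and those not outside both ages (green, such as H2-D1 at 1.64 and -0.25 and Cbr2 at 5.01 and -1.17) at the right.

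Genes lower at P3 than at both neighbours were led by immediate early genes. Of the 9 called, 6 were on the list of 34 measured immediate early genes: Dusp1, Egr1, Btg2, Ier2, Ier5 and Jun. The other 3 were Ighm, the mu heavy chain constant region gene of immunoglobulin, and the low-count genes Tcim and Gm44164. All 9 had P3 libraries below not only the 6 neighbouring libraries but all 12 other libraries of the series. Among the 241 genes with P3 below both neighbours, 61 had this position (0.415% of the genes tested). Against each age alone, 7 of the 9 passed against E14.5, where 0.388% of the genes tested were called lower at P3. Against P10, 6 of the 9 passed, beside 0.341% of the genes tested. Both differences passed for 4 genes: Dusp1, Ier2, Tcim and Gm44164 (0.0272% of the genes tested). Both pairwise comparisons use the same P3 libraries. The midpoint contrast that picked the 9 holds both differences, so these passes are in part built in.

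Dusp1 encodes a phosphatase that switches off MAP kinases, and it had the smallest adjusted p of the genes below both ages. It stood at 972, 912 and 1008 CPM in the P3 libraries. At E14.5 it had 1635, 1571 and 1629 CPM and at P10 it had 1897, 2302 and 2302. The P3 libraries lay close together and well below both neighbours, and levels went on to 2946 to 3215 CPM at P21. Dusp1 fell by 0.95 ± 0.09 (log2 difference to the midpoint with its SE, adjusted p = 0.000228). It fell by 0.74 against E14.5 (adjusted p = 0.00107) and by 1.17 against P10 (adjusted p = 0.000148).

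Egr1, a zinc finger transcription factor induced by growth factor and stress signals, fell mainly against E14.5. Its levels were 5005, 4864 and 5294 CPM at E14.5, 1056, 1373 and 1319 at P3, and 1395, 1767 and 1922 at P10. The highest P3 library lay only just under the lowest P10 library. The difference to E14.5 was -2.02 ± 0.17 (adjusted p = 2.5e-05) and that to P10 was -0.44 ± 0.16, which did not pass (adjusted p = 0.373). The departure from the midpoint was -1.23 ± 0.15 (adjusted p = 0.00233). P21 and P56 stayed at 1603 to 2416 CPM, far under the embryonic level.

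Btg2, which encodes an antiproliferative partner of the mRNA deadenylation complex, had the opposite balance. It stood at 912, 873 and 911 CPM at E14.5, at 607, 706 and 478 at P3 and at 1880, 2542 and 2191 at P10. P3 was the lowest age, yet most of the departure came from the P10 side. The difference to P10 was -1.88 ± 0.19 (adjusted p = 0.000393), that to E14.5 was -0.59 ± 0.18 (adjusted p = 0.139), and the departure from the midpoint was -1.24 ± 0.17 (adjusted p = 0.00547). At P21 it had 4180 to 5542 CPM, the highest of the 5 ages by mean.

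Jun encodes an AP-1 subunit that binds DNA as a dimer, for example with Fos. It had 879, 714 and 767 CPM at P3, beside 1697, 1525 and 1787 at E14.5 and 1364, 1400 and 1644 at P10. The 3 P3 libraries were low, no age overlapped them, and the neighbours overlapped each other. It fell by 0.99 ± 0.18 against the midpoint (adjusted p = 0.0426). The difference to E14.5 passed (-1.09, adjusted p = 0.0115) and that to P10 did not (-0.90, adjusted p = 0.0832).

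Ier2 and Ier5 are paralogous immediate early genes of the same family. Ier2 had 465, 597 and 430 CPM at P3, 800, 854 and 1105 at E14.5 and 974, 1204 and 1159 at P10. Ier5 had 186, 244 and 233 CPM at P3, 613, 398 and 424 at E14.5 and 313, 369 and 406 at P10. Neither gene's P3 range overlapped a neighbour's. Ier2 fell by 1.02 ± 0.17 against the midpoint (adjusted p = 0.0313) and passed on each side. Ier5 fell by 0.91 ± 0.16 (adjusted p = 0.0313), passed against E14.5 (adjusted p = 0.00463) and did not pass against P10 (adjusted p = 0.121).

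**Figure D2:**
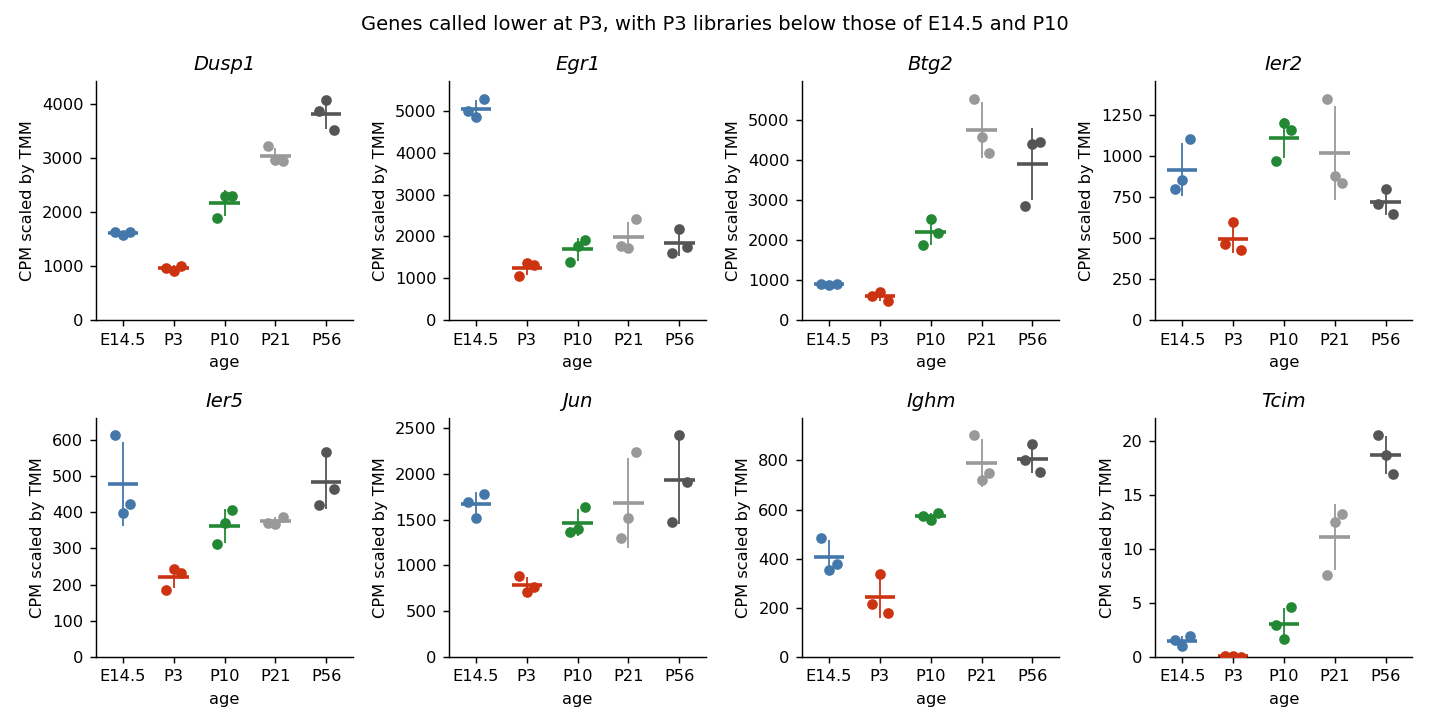
CPM scaled by TMM (vertical axis, from 0) at each age (horizontal axis) for 8 of the 9 genes called lower at P3, with 1 point per library, a bar at the mean and a line of 1 SD each way over 3 libraries. In each panel the 3 P3 points (red) are the lowest of the 15, for example 912 to 1008 CPM for Dusp1 and 714 to 879 CPM for Jun.

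The calls differed in how often they held when 1 library was left out. Each such fit left 1 age with fewer libraries and tested 15549 to 15653 genes instead of 14683. A lost call can reflect fewer libraries or an adjustment over more genes as well as the library left out. These were not told apart. Dusp1, Egr1 and Btg2 stayed called in each of the 9 fits that left out 1 of the 9 libraries. Jun was called in none of these 9 fits, with adjusted p from 0.0817 to 0.297 and log2 differences from -1.08 to -0.93. Ier2 stayed called only without E14.5 replicate 1 or P10 replicate 1 and reached an adjusted p of 0.23 without P3 replicate 3. Ier5 lost its call without any 1 of the P3 libraries and without P10 replicate 2 or 3, with adjusted p up to 0.239 (without P3 replicate 1). The direction of these 6 genes did not turn in any of the 9 fits.

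The window of 250 bases before the transcription start was searched in 4 of the 9 called lower genes that had an entry in the RefSeq promoter table (build GRCm38.p6). The cyclic AMP response element TGACGTCA and its relaxed form TGACNTCA, read on both strands, were searched because immediate early promoters are known for binding CREB, ATF and AP-1 proteins. TGACGTCA is contained in TGACNTCA. The 3 windows with a match are shown 5′ to 3′ on the gene's strand, with the matches in capitals.

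Dusp1 (chr17:26508473-26508722, minus strand): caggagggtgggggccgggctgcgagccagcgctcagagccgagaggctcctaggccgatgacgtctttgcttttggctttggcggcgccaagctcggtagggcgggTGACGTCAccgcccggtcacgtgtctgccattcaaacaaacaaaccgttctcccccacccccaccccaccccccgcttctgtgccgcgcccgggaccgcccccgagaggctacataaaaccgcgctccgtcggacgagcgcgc
Btg2 (chr1:134079156-134079405, minus strand): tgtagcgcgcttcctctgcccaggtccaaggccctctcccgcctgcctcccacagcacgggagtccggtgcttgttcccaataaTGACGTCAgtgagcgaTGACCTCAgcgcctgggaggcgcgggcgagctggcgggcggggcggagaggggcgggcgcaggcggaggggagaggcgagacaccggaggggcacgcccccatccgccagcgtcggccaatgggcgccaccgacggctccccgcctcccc
Jun (chr4:95052223-95052472, minus strand): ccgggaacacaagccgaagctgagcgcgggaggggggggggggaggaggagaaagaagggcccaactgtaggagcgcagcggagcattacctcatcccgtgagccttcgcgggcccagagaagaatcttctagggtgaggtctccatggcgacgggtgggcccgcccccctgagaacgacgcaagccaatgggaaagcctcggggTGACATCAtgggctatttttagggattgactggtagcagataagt

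Dusp1 held TGACGTCA at -143 to -136 counted from the start. Btg2 held TGACGTCA at -166 to -159 and TGACCTCA, a match to the relaxed form, at -150 to -143. Jun held TGACATCA at -45 to -38. Ier5 had an entry and no match. TGACNTCA thus occurred in 3 of 4 windows, beside 7.28% of the 10731 tested genes with a window. The immediate early list, which includes these 4 genes, had TGACNTCA in 5 of 30 windows (16.7%) and TGACGTCA in 3 of 30 (10%). All genes below both ages had TGACNTCA in 15 of 178 windows (8.43%), which is near the share of the tested genes. TGACGTCA occurred in 8 of those 178 windows (4.49%), beside 2.98% of the tested genes and 1 of 163 windows (0.613%) of the genes above both ages. The CArG box, bound by serum response factor, matched 0 of the 4 windows and 3 of 30 windows (10%) of the immediate early list, beside 1.38% of the tested genes. The AP-1 site TGANTCA, also searched, matched 0 of the 4 windows and 2 of 30 (6.67%) of the list, beside 5.56% of the tested genes. A match is a description of these letters, and binding was not measured.

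Over the whole immediate early list, 6 of 34 genes were called lower and none higher, 14 had an unadjusted p under 0.05, all lower, and 9 had P3 below both neighbours. Over all genes tested, 0.0613% were called lower, 6.43% had an unadjusted p under 0.05 in either direction and 1.64% had P3 below both. The median log2 difference to the midpoint was -0.39, beside 0.03 over all genes tested. By side, the list's median was 0.03 against E14.5 and -0.75 against P10, beside 0.006 and -0.009 over all genes tested. Against E14.5, 3 members were called higher and 5 lower, and against P10 none higher and 8 lower. The typical member thus lay below P10 and not below E14.5. The list summed to 16730, 18156 and 15429 CPM of the total count in the P3 libraries, to 23334, 23431 and 25416 at E14.5 and to 25953, 28693 and 31162 at P10. No P3 library reached the lowest library of another age, P21 and P56 included. A large part of the gap to E14.5 in this sum came from Egr1. It had 5615, 5628 and 6045 CPM of the total at E14.5 and 1158, 1513 and 1473 at P3. Not all members dipped, since 11 of the 34 differences to the midpoint were positive and 1 gene had P3 above both neighbours. Fos, the AP-1 partner of Jun, had 2204, 2215 and 1965 CPM at P3, overlapping the 1982 to 2734 CPM of E14.5 and under the 3932 to 4698 CPM of P10 (-0.56, adjusted p = 0.129). Atf3, a stress-induced repressor of the ATF family, dipped below both neighbours without a call. It had 316, 303 and 221 CPM at P3, below 438 to 480 at E14.5 and 938 to 1062 at P10. Against the midpoint it did not pass (-1.27 ± 0.24, adjusted p = 0.0592).

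**Figure D3:**
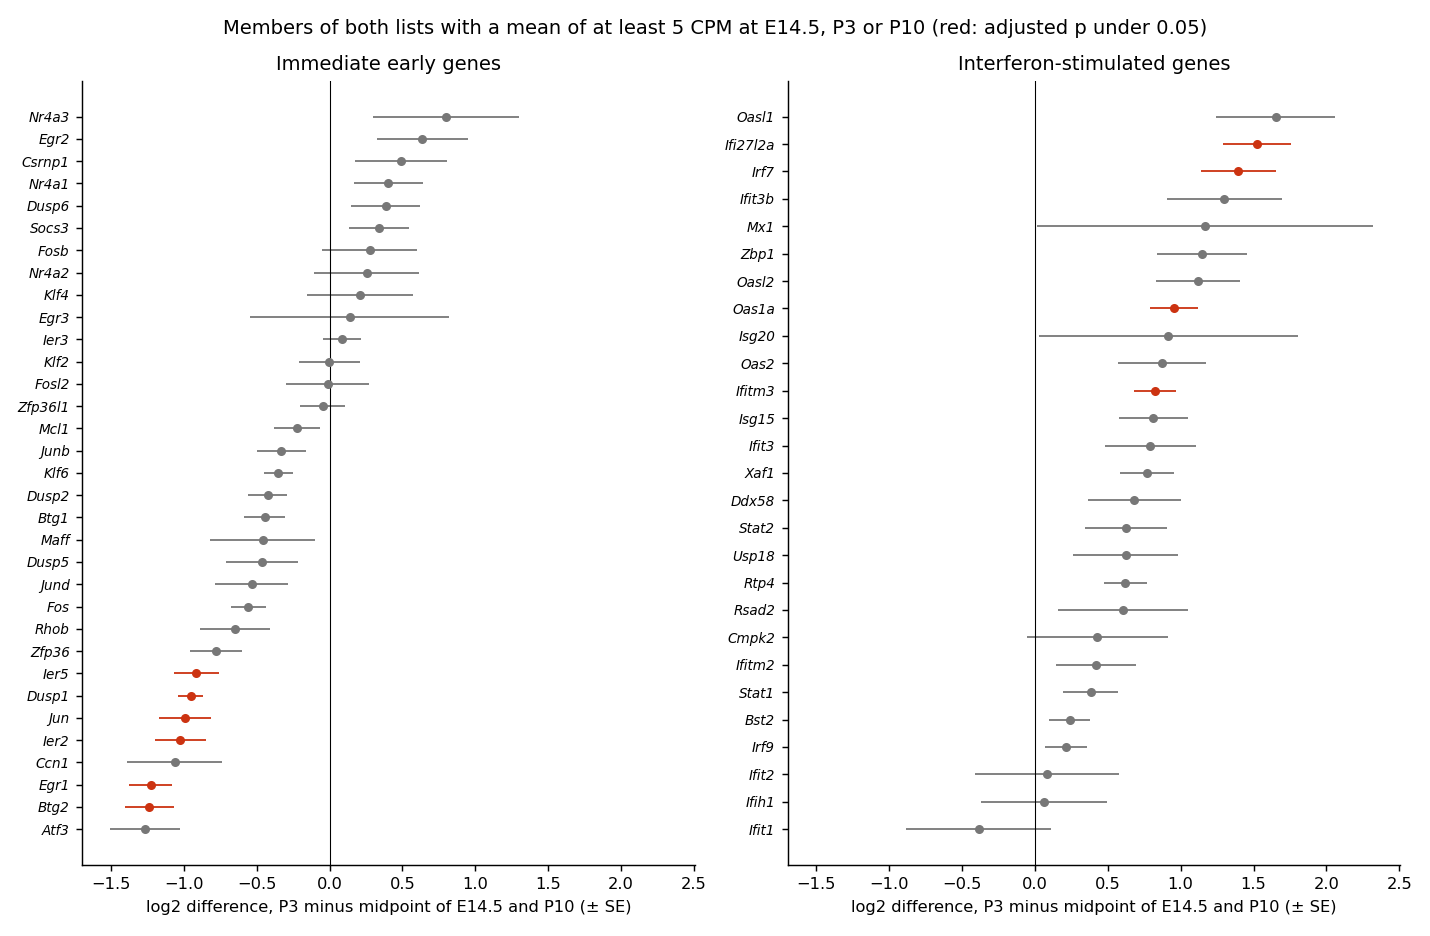
Log2 difference at P3 against the midpoint of E14.5 and P10 (horizontal axis, points with SE) for 33 of 34 immediate early genes (left) and 27 of 30 interferon-stimulated genes (right), namely those with a mean of at least 5 CPM in 1 of the 3 ages, with called genes in red. The 6 called genes at the left run from -1.24 (Btg2) to -0.91 (Ier5), and the 4 at the right from 0.82 (Ifitm3) to 1.52 (Ifi27l2a).

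Related signalling lists held few calls. None of the 16 NF-kB feedback genes was called, with 7 at an unadjusted p under 0.05 (5 lower and 2 higher), and 4 of the 16 had P3 below both neighbours. Among all genes tested, 6.43% had an unadjusted p under 0.05 and 1.64% had P3 below both. Nfkbia, the inhibitor that retains NF-kB in the cytoplasm, had 1719, 1745 and 1676 CPM at P3, beside 2045 to 2365 at E14.5 and 2210 to 2470 at P10 (-0.39 ± 0.09, adjusted p = 0.154). None of the 14 heat shock genes was called either, 4 had an unadjusted p under 0.05, and all 14 differences were negative with a median of -0.37. By side, the median was -0.60 against E14.5 and -0.20 against P10, and 2 of the 14 had P3 below both neighbours. Over all 14683 genes tested 6855 differences were negative and 7822 were positive. The glucocorticoid list had 1 called gene of 15, Dusp1, which it shares with the immediate early list. Its other members included Tsc22d3, known as GILZ, with 209 to 235 CPM at P3, 102 to 126 at E14.5 and 180 to 258 at P10 (0.46, adjusted p = 0.731).

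Outside these lists, Ighm had 213, 336 and 178 CPM at P3, 484, 353 and 379 at E14.5 and 575, 559 and 586 at P10. It fell by 0.99 ± 0.18 against the midpoint (adjusted p = 0.0387). P3 replicate 2 lay just under the lowest E14.5 library, and the call held in only 1 of the 9 fits without a library, the one without P3 replicate 2 (adjusted p = 0.00472), with up to 0.298 in the others. The B cell list summed to 284 to 461 CPM of the total at P3, 507 to 648 at E14.5 and 669 to 735 at P10, but Ighm and Cd79b made up nearly all of it. Cd79a, which B cells need for their receptor, had counts in 1 of the 3 P3 libraries (11 counts) and in none at E14.5. The part of B cells in the Ighm value was not tested.

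Tcim, a small regulator of transcription and immune responses, had 3, 1 and 0 counts in the P3 libraries. It had 36, 27 and 55 counts at E14.5 and 95, 36 and 90 at P10, so its fall rests on few reads (adjusted p = 0.00839, and 0.0687 without P3 replicate 2). Gm44164, a predicted gene model outside the naming rule and named after its values were seen, had 0 counts in all 3 P3 libraries, 22 to 54 at E14.5 and 43 to 205 at P10. Its adjusted p was 0.0177, and the call was lost without any 1 of the P3 libraries (0.0681 to 0.0937).

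Among genes below both ages that did not pass, Srsf5 and Gpr84 were next by p. Srsf5, a splicing factor of the SR family, had 66.4, 76.4 and 59.5 CPM at P3, 122 to 133 at E14.5 and 94 to 109 at P10 (-0.76, adjusted p = 0.0949). Gpr84, a receptor for medium-chain fatty acids on activated macrophages, had 22.9 to 31.9 CPM at P3, 75.2 to 91.3 at E14.5 and 55.2 to 73.4 at P10 (-1.41, adjusted p = 0.129). Both genes passed against E14.5 (adjusted p = 0.0124 and 0.0225). Siglech, a sialic acid binding lectin, had 6.78 to 22.5 CPM at P3 against 31.7 or more in each of the other 12 libraries (adjusted p = 0.167).

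Genes higher at P3 than at both neighbours came from several pathways. The 7 called were Hgsnat, Cd163, Cdkn1c, Ifi27l2a, Oas1a, Txnip and Irf7. All 7 passed against E14.5, where 1.67% of the genes tested were called higher at P3. The midpoint contrast that picked the 7 holds this difference, so these passes are in part built in. Only Hgsnat (1 gene, 0.00681% of the genes tested) passed against P10 as well, where 0.0613% of the genes tested were called higher. For the other 6, P3 libraries lay above the P10 libraries without a call on that side. Later ages separated these genes too, since Hgsnat and Cdkn1c were above all 12 other libraries. Among the 219 genes with P3 above both neighbours, 59 had this position (0.402% of the genes tested). The other 5 of the 7 called genes had P21 or P56 libraries at or above their P3 level.

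Hgsnat encodes the lysosomal membrane enzyme that acetylates heparan sulfate during its breakdown. It had 1169, 987 and 975 CPM at P3, 607, 525 and 515 at E14.5 and 475, 605 and 547 at P10. Both neighbours held about the same level, the P3 libraries stood apart from both, and at P21 and P56 the gene was at 205 to 262 CPM. It was higher by 0.94 ± 0.11 against the midpoint (adjusted p = 0.00212), by 0.93 ± 0.13 against E14.5 (adjusted p = 0.00178) and by 0.94 ± 0.13 against P10 (adjusted p = 0.0055). The call held in all 9 fits without 1 library. No other of the 40 lysosomal hydrolases and transporters was called, and the median of the list was 0.09. Grn, the precursor of lysosomal granulins, followed by p with 3547 to 3910 CPM at P3, 2310 to 2631 at E14.5 and 3087 to 3686 at P10, which overlaps P3 (0.38, adjusted p = 0.154). Naglu, the enzyme that follows Hgsnat in heparan sulfate breakdown, had 114 to 133 CPM at P3, 63.3 to 80.8 at E14.5 and 89.2 to 146 at P10 (0.39, adjusted p = 0.693).

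Cdkn1c encodes p57, an imprinted inhibitor of cyclin-dependent kinases. It had 87.4, 169 and 167 CPM at P3, 17.7, 20.4 and 35.3 at E14.5 and 73, 65 and 70.1 at P10. P3 replicate 1 lay close to the P10 libraries and the other 2 far above them. The departure from the midpoint was 1.77 ± 0.23 (adjusted p = 0.00376), made up of 2.53 against E14.5 (adjusted p = 0.000413) and 1.02 against P10 (adjusted p = 0.182). At P56 the gene had 19 to 23 CPM. The call held in all 9 fits without 1 library. Of 16 oncofetal and imprinted genes, Cdkn1c alone was called, and the median of the list was 1.18, with many members at low counts. H19, an imprinted noncoding RNA, had 59.1, 103 and 154 CPM at P3, overlapping the 58 to 107 CPM of P10 (1.03, adjusted p = 0.403).

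Cd163 encodes the scavenger receptor that takes up hemoglobin bound to haptoglobin. It had 27.3, 35.6 and 56 CPM at E14.5, 622, 558 and 592 at P3 and 307, 384 and 398 at P10. The 3 P3 libraries lay close together and above all P10 libraries, and P21 had 740 to 969 CPM. The difference to the midpoint was 2.30 ± 0.27 (adjusted p = 0.00212), mostly from E14.5 (3.90, adjusted p = 7.46e-05), while the difference to P10 was 0.70 (adjusted p = 0.496). The call held in all 9 fits without 1 library.

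Cd163 was the only called gene of the 16 heme and iron genes, where 3 had P3 above both neighbours, beside 1.49% of the genes tested. The other 2 were exporters. Slc48a1, which moves heme out of the lysosome, had 313, 293 and 375 CPM at P3, 242 to 267 at E14.5 and 171 to 199 at P10. It passed against P10 (0.83 ± 0.14, adjusted p = 0.0196) and not against the midpoint (0.59, adjusted p = 0.0959). Slc40a1, or ferroportin, which exports iron from the cell, had 1809, 2450 and 2817 CPM at P3, 1308 to 1405 at E14.5 and 1143 to 1212 at P10. Its P3 libraries were the highest 3 of the 15 but spread widely, and it did not pass (0.91 ± 0.32, adjusted p = 0.575). Spic, the factor of heme-handling macrophages, did not peak, with 19.8 to 36.2 CPM at P3 between 2.71 to 3.52 at E14.5 and 43.6 to 54 at P10.

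Interferon-stimulated genes held 3 of the 7. Ifi27l2a, an interferon-inducible gene of the ISG12 family, had 521, 514 and 460 CPM at P3, 115, 140 and 121 at E14.5 and 214, 353 and 151 at P10. The P3 libraries were tight and the P10 libraries were not. It was higher by 1.52 ± 0.23 against the midpoint (adjusted p = 0.0131), and the call was lost without P3 replicate 1 (0.0765) or P3 replicate 2 (0.0687). Irf7, the transcription factor that amplifies type I interferon responses, had 117, 89.4 and 56.8 CPM at P3, 24.8, 40.5 and 27.4 at E14.5 and 35.5, 38.5 and 34 at P10. All P3 libraries exceeded both neighbours, with a spread of 30 CPM (SD) among themselves. It was higher by 1.39 ± 0.26 (adjusted p = 0.0499), and the call remained in 1 of the 9 fits without a library, that without P3 replicate 3 (adjusted p = 0.0374), with up to 0.338 without P3 replicate 1.

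Oas1a encodes a sensor of double-stranded RNA. It had 79.3, 99.2 and 81.8 CPM at P3, 35.2, 31.9 and 38.8 at E14.5 and 59.8, 58.6 and 52.4 at P10. It was higher by 0.95 ± 0.16 against the midpoint (adjusted p = 0.0313), with no overlap between ages, and kept its call only in the fit without E14.5 replicate 3, with up to 0.26 without P3 replicate 2. Reads of Oas1a and Ifi27l2a can be shared with near-identical neighbours of their families, so their split between copies is uncertain. The promoter window of Oas1a held 2 overlapping matches to the core of the interferon-stimulated response element (GAAA, any 2 bases and GAAA again), at -20 to -11 and -14 to -5. It is shown as the called interferon gene whose window holds the element, with the matches in capitals.

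Oas1a (chr5:120907526-120907775, minus strand): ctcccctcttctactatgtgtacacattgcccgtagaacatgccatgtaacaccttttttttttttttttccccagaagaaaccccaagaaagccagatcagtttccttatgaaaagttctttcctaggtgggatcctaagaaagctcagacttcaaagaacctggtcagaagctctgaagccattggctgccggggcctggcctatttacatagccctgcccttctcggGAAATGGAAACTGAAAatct

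This element, searched on both strands, was in 10 of 22 windows of the interferon list (45.5%), beside 3.36% of the tested genes. It was in 12 of 163 windows (7.36%) of all genes above both ages and in 3 of 178 (1.69%) of those below. The windows of Irf7, Cd163 and Txnip had an entry and no match.

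Of the 30 interferon-stimulated genes tested, 4 were called higher and none lower, 28 differences were positive, and 5 genes had P3 above both neighbours. Over all genes tested, 0.123% were called higher, 7822 of 14683 differences were positive and 1.49% had P3 above both. The median difference of the list was 0.72, beside 0.03 over all genes. By side, the median was 1.01 against E14.5, with 9 members called higher, and 0.39 against P10, with none called. The list summed to 2611, 2668 and 2520 CPM of the total at P3, above 1168 to 1405 at E14.5 and 1692 to 2087 at P10, and below 3133 to 3680 at P21. P56 had 3372 to 4559, so no P21 or P56 library was as low as P3. The fourth called gene, Ifitm3, which blocks viral entry, had 205 to 229 CPM at P3 within the 203 to 251 of P10 (0.82, adjusted p = 0.0346). It kept its call in none of the 9 fits without a library (adjusted p 0.0623 to 0.237). Oasl1 and Oasl2, both of the oligoadenylate synthetase family, had P3 above both ages and did not pass (adjusted p = 0.201 and 0.238). Rtp4 had 164 to 198 CPM at P3, overlapping 130 to 184 at P10 (adjusted p = 0.168).

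Txnip encodes an inhibitor of thioredoxin and glucose uptake. It had 686, 537 and 674 CPM at P3, 310, 293 and 320 at E14.5 and 351, 475 and 493 at P10. P3 lay above both, and P56 was higher still at 896 to 1137 CPM. The difference to the midpoint was 0.78 ± 0.14 (adjusted p = 0.0353), and the call was kept only without P10 replicate 3, reaching 0.252 without P3 replicate 1.

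**Figure D4:**
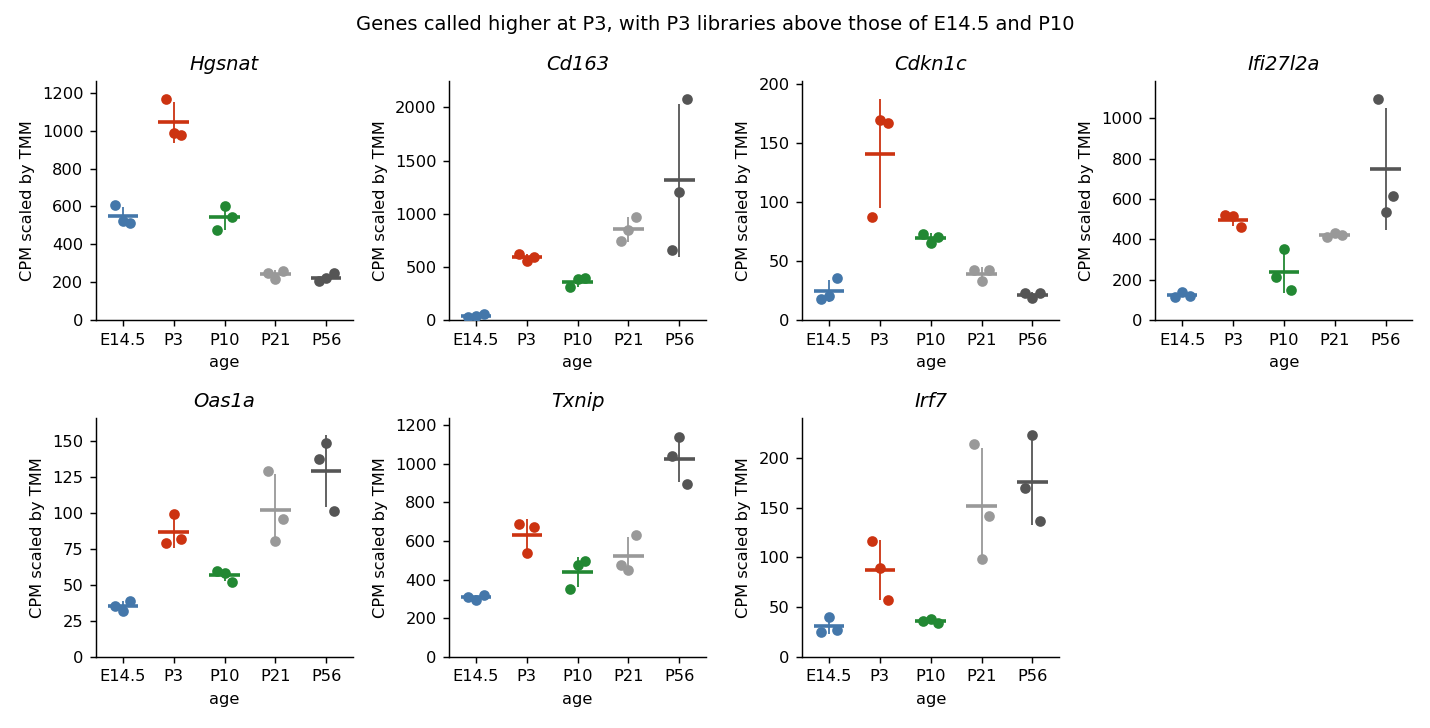
CPM scaled by TMM (vertical axis, from 0) at each age (horizontal axis) for the 7 genes called higher at P3, with 1 point per library, a bar at the mean and a line of 1 SD each way over 3 libraries. In each panel the 3 P3 points (red) lie above the E14.5 and P10 points, and only for Hgsnat (975 to 1169 CPM) and Cdkn1c (87.4 to 169 CPM) do they also lie above P21 and P56.

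Next by p, and not called, were Tap1, Pomk and Lgals3bp. Tap1, the peptide pump for MHC class I loading, had 102, 103 and 72.7 CPM at P3, 38.9 to 47 at E14.5 and 45.3 to 66.3 at P10 (0.89 ± 0.17, adjusted p = 0.0523). Pomk, a kinase that acts on the glycan of dystroglycan, had 150, 119 and 137 CPM at P3, and the highest other library of the series had 93.1 CPM (0.82 ± 0.16, adjusted p = 0.0592). Lgals3bp, a secreted galectin ligand induced by interferon, had 344 to 417 CPM at P3 against 260 to 331 at P10 (0.77, adjusted p = 0.063). Scamp5, Fcna and Il18 had P3 above all 12 other libraries and also missed the threshold. Scamp5, a secretory membrane protein, had 275 to 298 CPM at P3 and 135 to 209 at P10, and passed against P10 alone (adjusted p = 0.0499, and 0.105 against the midpoint). Fcna, the lectin ficolin A of the complement system, had 379 to 524 CPM at P3 and at most 324 elsewhere (adjusted p = 0.154). Il18, a cytokine processed by inflammasomes, had 177.3 to 203 CPM at P3 and 111.8 to 176.5 at P10 (adjusted p = 0.191).

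The 11 called genes that were not outside both neighbours were Cbr2, Cfp, Cd209b, Cd209f, Cd209g, H2-D1, H2-K1, H2-M3, Gsta4, Ccnd2 and Ifitm3. All of them passed against E14.5, and P3 lay closer to P10 than to E14.5 on the log scale. Cbr2, a carbonyl reductase of border macrophages, had 18.5 to 20.1 CPM at E14.5, 703, 539 and 626 at P3 and 1256 to 1546 at P10. On the log scale it lay above the midpoint by 1.92 ± 0.10 (adjusted p = 1.64e-07) while remaining under P10 (-1.17, adjusted p = 0.000393). Cfp, the complement stabiliser properdin, had 163 to 199, then 631 to 662, then 711 to 733 CPM (0.83 ± 0.09, adjusted p = 0.000769). H2-D1, a classical MHC class I heavy chain, had 674 to 750, then 2030 to 2272, then 2363 to 2748 CPM (0.70 ± 0.09, adjusted p = 0.00293). Of 17 MHC class I heavy chain and loading genes, 3 were called, all higher, and 3 others (Tap1, H2-Q6 and Nlrc5) had P3 above both neighbours without a call. Among all genes tested, 0.123% were called higher and 1.49% had P3 above both. The list's median difference was 1.29 against E14.5, with 9 called higher, and -6.3e-05 against P10, with none called. As a list these genes thus rose from E14.5 and stood at P3 about where they stood at P10. Reads of H2 and Cd209 genes can be shared between copies, so the split within these families is uncertain.

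Markers of other cell types were summed in the same libraries. Of 11 mast cell markers, 7 had P3 above both neighbours, none was called against the midpoint, and 8 had an unadjusted p under 0.05. Among all genes tested, 1.49% had P3 above both and 6.43% had an unadjusted p under 0.05. Their sum was 647, 1782 and 1160 CPM of the total at P3, 129, 5.94 and 2.185 at E14.5 and 436, 176 and 266 at P10. The P3 libraries did not overlap either neighbour, and P21 held 4.05 to 11.5 CPM. Most of the sum came from granule proteases. Cpa3, carboxypeptidase A3, had 162, 516 and 340 CPM at P3, 0.313 to 59.8 at E14.5 and 29.8 to 113 at P10 (adjusted p = 0.599). The chymase gene Cma1 had 198, 421 and 285 CPM at P3, 0.403 to 28.7 at E14.5 and 66.2 to 110 at P10 (adjusted p = 0.41). Tpsb2, a tryptase, had 140, 441 and 256 CPM at P3, 0.44 to 13 at E14.5 and 51 to 114 at P10 (adjusted p = 0.265). For these genes the P3 libraries lay above both neighbours, as they did for Mcpt4, another chymase, which had 68 to 185 CPM at P3, 0.26 to 0.367 at E14.5 and 23.8 to 63 at P10. Mcpt4 passed against E14.5 (adjusted p = 0.0359) and not against the midpoint (adjusted p = 0.176). The receptor chain gene Fcer1a and the tryptase gene Tpsab1 had at most 7.62 and 2.39 CPM of the total in a P3 library. Of the 11 markers, 3 to 4 were at 0 in an E14.5 library, 2 to 3 in a P10 library, and at P3 only Fcer1a, in replicate 1.

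With the log2 summed mast cell markers as a covariate, an alternative chosen after seeing the data, 6 genes were called against the midpoint instead of 27. The 3 called genes below both ages that kept their call were Dusp1 (-0.99, adjusted p = 0.00765), Ier5 (-1.31, adjusted p = 0.00765) and Egr1 (-1.41, adjusted p = 0.0277). The 7 genes above both kept positive differences, from 0.73 for Txnip to 2.73 for Cd163, and lost their calls, with adjusted p from 0.0549 for Cd163 to 0.66 for Irf7. Hgsnat had 0.87 (adjusted p = 0.137) and Cdkn1c had 2.09 (adjusted p = 0.102). Age and this sum move together, so their parts cannot be told apart in these libraries.

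Neutrophil markers summed to 664, 1025 and 415 CPM of the total at P3, 311, 319 and 90.1 at E14.5 and 469, 260 and 558 at P10, so P3 replicate 3 overlapped P10. None of the 11 tested was called, and 7 had an unadjusted p under 0.05, all higher, beside 6.43% of the genes tested in either direction. Fibroblast markers summed to 588 to 2682 CPM at P3, 83.2 to 788 at E14.5 and 804 to 2964 at P10, with wide overlap between P3 and P10. Monocyte markers summed to 263 to 317 CPM at P3, 183 to 193 at E14.5 and 186 to 299 at P10. With the neutrophil sum as a covariate, 4 of the 7 genes above and 6 of the 9 below kept their calls. With the fibroblast sum 4 of 7 and 4 of 9 did.

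**Figure D5:**
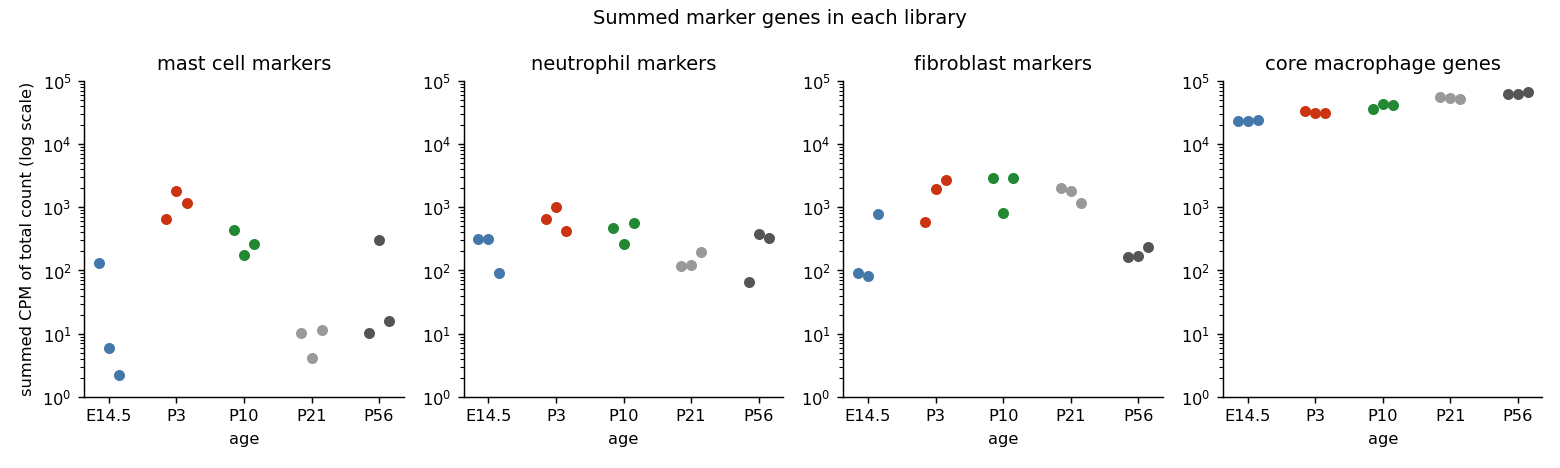
Summed CPM of the total count (vertical axis, log scale) of 11 mast cell, 18 neutrophil and 16 fibroblast markers and 18 core macrophage genes, with 1 point per library at each age (horizontal axis). The mast cell sum is highest in the 3 P3 libraries (647 to 1782 CPM), while the core macrophage sum runs from 23055 CPM at E14.5 upward and takes a middle place at P3.

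The 2 E14.5 libraries with Xist were left out as a further alternative chosen after seeing the data. With only E14.5 replicate 3 at that age, whose spread is then assumed to be that of the other ages, 11 genes were called instead of 27. Of the genes above both ages, Hgsnat (0.98, adjusted p = 0.0242) and Cd163 (2.05, adjusted p = 0.0464) stayed called. Of those below, Dusp1 (-0.96, adjusted p = 0.00838), Egr1 (-1.26, adjusted p = 0.0242) and Tcim (adjusted p = 0.0464) did.

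Later ages gave the course after P3 for the wider sets. Of the 219 genes with P3 above both neighbours, 168 had a lower mean at P21 than at P3 and 51 had the same or a higher one. Of the 241 genes below both, 198 had a higher mean at P21 and 43 the same or a lower one. Both sets were picked for an extreme P3 level, so a later mean on the neighbours' side is in part built in. The same share over all genes tested is not given here, so these counts do not show a transient state. Cd9, a tetraspanin, was among the genes below both neighbours without a call, with 32.8 to 43.2 CPM at P3, 43.9 to 130 at P10 and 106 to 164 at E14.5 (adjusted p = 0.222). Gem, a small GTPase, had 42.1 to 65.1 CPM at P3, 76.8 to 99 at P10 and 159 to 225 at E14.5 (adjusted p = 0.227). Ptgs2, the inducible cyclooxygenase, had 19.9 to 37.1 CPM at P3, 51.7 to 84.6 at P10 and 112 to 123 at E14.5 (adjusted p = 0.275). At P21 Cd9 had 32.8 to 51.4 CPM, Gem 59.3 to 113.7 and Ptgs2 52.9 to 76.3. At P56 Cd9 had 11.8 to 32.2 CPM, Gem 16.2 to 53.5 and Ptgs2 10.1 to 59.8. For none of these genes did the P3 libraries lie below all P56 libraries.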

How the data were processed

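Bulk RNA-seq was made from sorted dural macrophages of 5 ages, 15 libraries in all, with the SMARTer Ultra Low Input v4 and Nextera XT kits, per the labels' protocols. The series text states how many individual mice were used at each age and does not tie a library to 1 mouse, so p-values measure the spread between these libraries. The deposited values are raw read counts by gene symbol for 53546 symbols. Tools listed among the submitters' processing notes are STAR 2.7.8a for alignment, featureCounts 2.0.2 and bcl2fastq 2.18. The genome build, annotation and strand setting are not given in the sources used here. By the labels, the 3 ages compared and P21 share 1 sequencing project and P56 comes from another.

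The 15 libraries were fitted in edgeR 4.0.16 (R 4.3.3) with age as the only term, TMM scaling, filterByExpr (which left 14683 genes) and its robust quasi-likelihood test. The contrast was P3 minus 0.5 of each neighbour, with Benjamini-Hochberg adjustment across genes. SE is the size of the log2 difference over the square root of F. List sums use the total count without TMM. The scripts were tested on simulated data. Alternatives were RLE, upper quartile and no scaling, no filter and a filter of 5 CPM, DESeq2 1.42.0, limma 3.58.1 with voom, the 9 or 12 libraries alone, a replicate block, thinned counts, leaving out each of the 9 libraries, and 4 alternatives added after seeing the data (only E14.5 replicate 3, and covariates for mast cell, fibroblast or neutrophil markers).

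The members and the 41 gene lists were chosen with earlier results of these data known. Named were up to 15 called genes above or below both ages with at least 20 CPM, ordered by the smaller of their differences, without predicted models and filled to 10 by p. Also named were up to 4 members by p of lists with a call (6 for 4 lists), up to 3 called genes with P3 between its neighbours, and 5 identity genes. Every other gene in the text, such as Tcim, Fos, Nfkbia, Slc48a1, Scamp5, Fcna, Il18, Siglech and Cma1, was named after its values were seen. Promoter sequences are from RefSeq, GRCm38.p6, which had an entry for 8 of the 16 called genes. Ier2, Egr1, Ifi27l2a, Cdkn1c, Hgsnat, Tcim, Ighm and Gm44164 had none.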

Additional observations from a re-analysis of the deposited data

How the results depend on the processing

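Counts of calls depended on the setting more than directions did: the 16 genes called above or below both ages kept their sign in every alternative that tested them. Among the named genes without a call, Mrc1, Csf1r, Cd79a and Cpa3 changed sign in at least 1 alternative. As reported, 27 genes were called against the midpoint, 302 against E14.5 and 59 against P10, with 7 above both ages, 9 below both, 1 above with each side called and 4 below with each side called. RLE, upper quartile and no scaling and thinning kept these counts within 1.5 times, and the share of higher calls against the midpoint moved by under 10 percentage points with each scaling. Against P10, 9 genes were called higher and 50 lower, and without a scaling factor 16 higher and 39 lower. Leaving out 1 library at a time gave 14 to 30, 127 to 277, 21 to 52, 3 to 7, 4 to 7, 1 to 1 and 3 to 5 in that order. Without a filter the counts were 70 against the midpoint, 116 against P10, 18 above, 17 below, 2 above and 9 below with each side called. With the filter of 5 CPM, 91 were called against P10. DESeq2 called 156, 822 and 335, with 34 above, 47 below, 17 above and 30 below with each side called. Limma voom called 94 against P10, 20 above and 7 above with each side called. On the 9 libraries the counts were 59, 596 and 251, with 23 above, 18 below, 9 and 13 with each side called. On the 12 libraries of one project they were 45 against the midpoint and 109 against P10, with 17 above, 14 below, 3 and 10 with each side called. With only E14.5 replicate 3 they were 11 and 22 against E14.5, with 2 above, 3 below and 0 and 0 with each side called. With the mast cell covariate they were 6, 34 against E14.5, 1 above, 3 below and 1 below with each side called. With the fibroblast covariate they were 16, 31, 4 above, 4 below, 2 and 0 with each side called. With the neutrophil covariate they were 17 and 4 above. The causes of these differences were not tested.

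The replicate numbers are shared by the labels of the 3 ages without naming a shared animal. The correlations of same-numbered libraries' deviations ran from -0.0576 to 0.0873. Differently numbered libraries were not compared, so these values cannot decide whether the libraries were paired. A replicate block on the 9 libraries gave 29 against the midpoint, 463 against E14.5 and 145 against P10, with 8 above, 11 below, 3 above and 10 below with each side called. Of the 7 genes above both ages 4 kept their call under the block, and of the 9 below both 5 did. Among the other settings, Irf7 lost its call with limma voom (adjusted p = 0.0902), on the 12 libraries (0.0542) and with thinned counts (0.0589). Ighm lost it on the 9 (0.0682) and the 12 libraries (0.0622), Tcim (0.126) and Gm44164 (0.0574) on the 9, and Jun without a scaling factor (0.052).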
